A study of Bos taurus with 6 samples.

Results

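The miR-17/92 and miR-106b/25 clusters and the separately encoded miR-92b were measured in the liver of 3 grass-fed and 3 grain-fed cattle by small RNA sequencing. The choice of miRNAs used no measured value, although earlier results of these data were known. The 10 mature miRNAs were taken by name from the 1030 listed in each library as the products of these loci. These were bta-miR-17-5p, bta-miR-18a, bta-miR-19a, bta-miR-19b, bta-miR-20a and bta-miR-92a of the first cluster, bta-miR-106b, bta-miR-93 and bta-miR-25 of the second, and bta-miR-92b. All 10 were among the 456 of these 1030 that passed the filter on low counts (a count above 2 in at least 2 of 6 libraries). All animals were Wye Angus steers of a single closed herd, slaughtered at market weight. The grass-fed steers, on alfalfa, hay or grass pasture, were 21 months old, and the grain-fed steers, on corn silage, shelled corn, soybean and minerals, were 14 months old. Each library came from the left liver lobe of 1 animal. Whole tissue was sequenced, so fewer cells of a type and less RNA per cell cannot be told apart.

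A polycistronic miRNA cluster is transcribed as a single primary RNA, from which each hairpin is cut out and trimmed to a mature strand that guides the silencing of mRNAs. The miR-17/92 cluster is known as oncomiR-1, is switched on by MYC and E2F transcription factors in dividing cells, and restrains cell cycle inhibitors and the death-promoting factor BIM. The miR-106b/25 cluster arose from the same ancestor and is carried in an intron of MCM7, which encodes a subunit of the helicase that opens replication origins. Members fall into seed families that cut across the clusters. miR-17-5p, miR-20a, miR-93 and miR-106b belong to a common family, miR-92a, miR-92b and miR-25 to another, miR-19a and miR-19b to the next, and miR-18a stands in a family of its own here. In adult liver, where few hepatocytes divide, these clusters are best known from their raised levels in tumours.

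In the RefSeq annotation of ARS-UCD2.0, a later assembly than the ARS-UCD1.2 used by the authors, all 18 precursors of the listed miRNAs and their relatives were matched by name. The 6 precursors of miR-17/92 lay side by side in the order bta-mir-17, bta-mir-18a, bta-mir-19a, bta-mir-20a, bta-mir-19b and bta-mir-92a-1, inside no protein-coding or lncRNA gene, with SLITRK5 and GPC5 as the nearest protein-coding neighbours. The 3 precursors bta-mir-106b, bta-mir-93 and bta-mir-25 lay within MCM7. bta-mir-92b stood apart, between THBS3 and MUC1. Both bta-miR-92a and bta-miR-19b also have a copy, bta-mir-92a-2 and bta-mir-19b-2, in the paralogous cluster of the X chromosome that runs from miR-363 to miR-106a, between GPC3 and CCDC160.

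The libraries held 3824592 to 6133960 miRNA counts in the grass-fed group and 464875 to 892929 in the grain-fed group, with the largest count over precursors taken for each mature miRNA. Of these, 32851 to 43181 counts per grass-fed library and 4024 to 5980 per grain-fed library fell on the 10 miRNAs, which is 0.704% to 0.859% and 0.670% to 0.866% of all counts. Levels are given as CPM, the count relative to the library total after TMM scaling in edgeR. A single count was worth 0.211 to 0.262 CPM in the grass-fed and 0.974 to 1.77 CPM in the grain-fed libraries, so the grain-fed values of the rarer miRNAs are less precise. Depth separated the groups in the same way as diet and age did, and the 3 cannot be told apart. bta-miR-122, the defining miRNA of hepatocytes, had the highest mean CPM of all miRNAs in both groups. Grass-fed replicate 2 stood apart from the other two grass-fed libraries, with a TMM factor of 0.692 against 0.936 and 0.996.

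Of the 10 miRNAs, 1 was a DEmiRNA between the groups, with FDR below 0.1 in the edgeR quasi-likelihood test over all 456 tested miRNAs. It was bta-miR-92a, and it was higher in grass-fed liver. Over all tested miRNAs 19.1% were called, and 9.43% were called as higher in the grass-fed group, so the 1 of 10 was not above the share called over the series and close to the share called as higher. The log2 fold changes, grass-fed minus grain-fed, ran from -0.91 for bta-miR-92b to 0.92 for bta-miR-92a, with 5 above and 5 below 0. Their median was -0.05, beside 0.13 over all tested miRNAs. The CPM ranges of the groups did not overlap for 4 of the 10 (bta-miR-92a, bta-miR-25, bta-miR-93 and bta-miR-19b), and for 32.9% of all tested miRNAs.

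bta-miR-92a, the last hairpin of miR-17/92 and a miRNA known in endothelial cells as a brake on vessel growth, was the most abundant of the 10 in every library. Its level was 4295, 6878 and 4735 CPM in the grass-fed libraries and 2783, 2445 and 3162 CPM in the grain-fed libraries, values here and later being in the order of replicates 1, 2 and 3. Every grass-fed library lay above every grain-fed library. The log2 fold change was 0.92 (standard error 0.23, FDR = 0.0153 in the edgeR quasi-likelihood test), or 1.90-fold, with a 95% interval of 1.35-fold to 2.66-fold. The highest value was that of grass-fed replicate 2, and without this library the log2 fold change was 0.69 (FDR = 0.0277, edgeR). The call was lost without grain-fed replicate 2 (log2 fold change 0.74, FDR = 0.105, edgeR).

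The other 5 miRNAs of miR-17/92 did not pass FDR 0.1 in the edgeR quasi-likelihood test. bta-miR-20a, of the miR-17 seed family, was the second in abundance within the cluster, with 975, 628 and 1091 CPM in the grass-fed and 820, 1144 and 1173 CPM in the grain-fed libraries. The groups overlapped, and grass-fed replicate 2, the highest library for bta-miR-92a, was the lowest for bta-miR-20a. Its log2 fold change was -0.22 (standard error 0.25, FDR = 0.675, edgeR), and it was -0.012 without that library. bta-miR-17-5p, the founding member of the family, was found at a lower level. Its values were 235, 153 and 270 CPM in the grass-fed and 237, 344 and 337 CPM in the grain-fed libraries. Grass-fed replicate 2 was again the lowest, the groups overlapped, and the log2 fold change was -0.47 (standard error 0.27, FDR = 0.283, edgeR), or -0.27 without that library.

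bta-miR-19b, of the miR-19 seed family, had the most even grass-fed values of the 10. It had 300.2, 294 and 305 CPM in the grass-fed and 248, 293 and 287 CPM in the grain-fed libraries. The ranges touched without overlapping, 294 CPM being the lowest grass-fed and 293 CPM the highest grain-fed value, and the interval of the fold ran from 0.797 to 1.48 (log2 fold change 0.12, FDR = 0.779, edgeR). Its seed relative bta-miR-19a was far less abundant, with 28.0, 29.0 and 21.5 CPM in the grass-fed and 16.6, 16.99 and 26.6 CPM in the grain-fed libraries. Here grain-fed replicate 3 lay among the grass-fed values, and the log2 fold change was 0.44 (standard error 0.33, FDR = 0.442, edgeR). bta-miR-18a was close to the limit of detection. It was read 29, 15 and 18 times in the grass-fed and 7, 1 and 2 times in the grain-fed libraries, and 2 of the 3 grain-fed libraries were under the floor of 3 counts. With a mean of 4.79 ± 1.29 CPM against 3.93 ± 2.72 CPM (SD, 3 libraries each), its interval ran from 0.469-fold to 2.66-fold, and no difference was detectable at this depth.

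**Figure D1:**
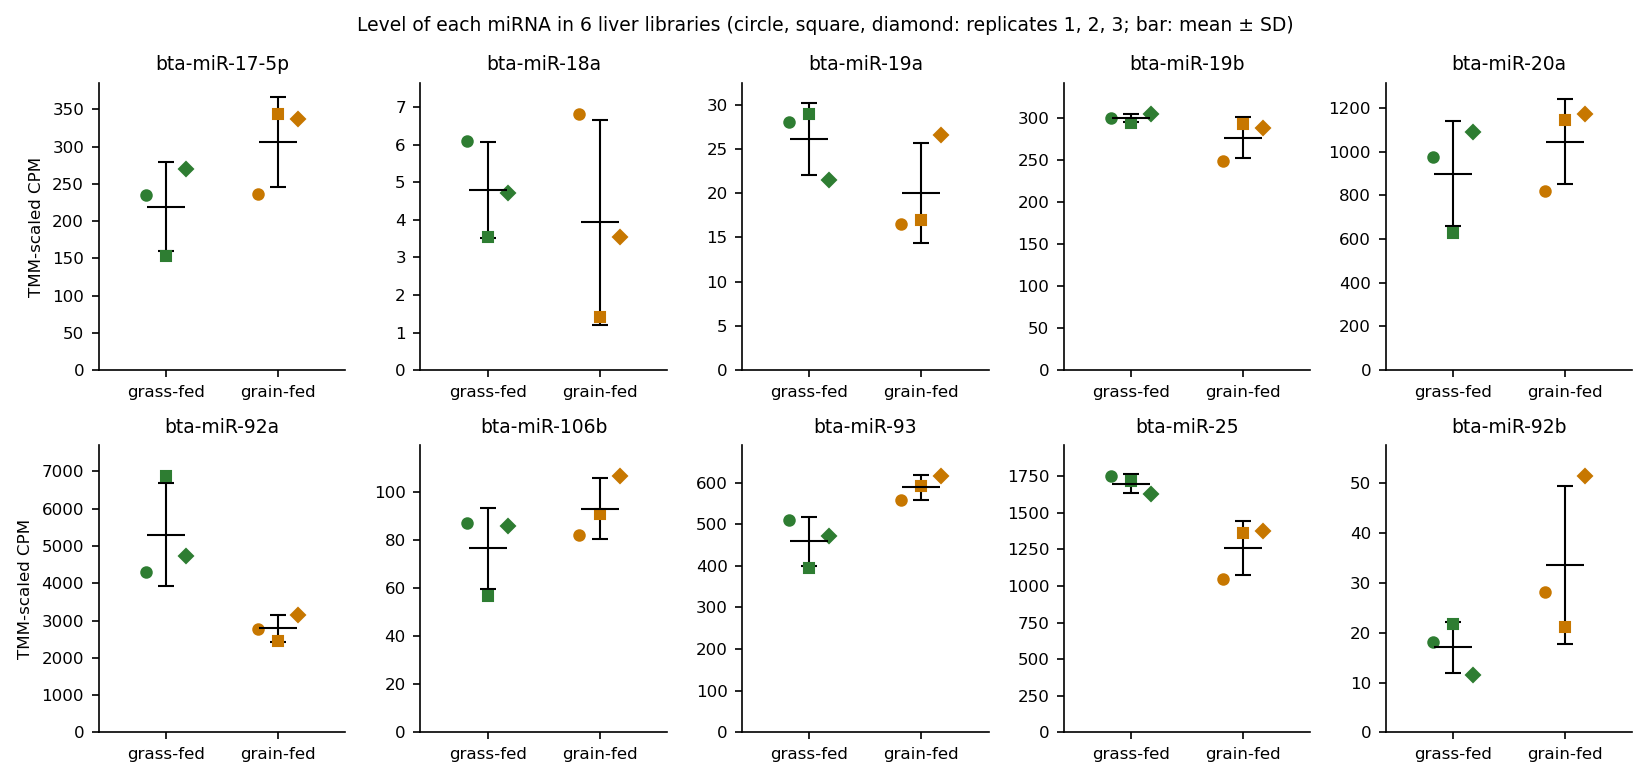
TMM-scaled CPM (vertical axis, from 0, its own scale in each panel) of the 10 miRNAs in 3 grass-fed (green) and 3 grain-fed (orange) liver libraries, with circles, squares and diamonds for replicates 1, 2 and 3 and black bars for the mean ± SD. bta-miR-92a and bta-miR-25 are higher and bta-miR-93 lower in every grass-fed library than in any grain-fed library, while bta-miR-17-5p, bta-miR-20a, bta-miR-106b, bta-miR-92b, bta-miR-18a and bta-miR-19a overlap and the ranges of bta-miR-19b only just do not.

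Within the miR-106b/25 cluster FDR was above 0.1 for all 3 miRNAs in the edgeR quasi-likelihood test. None had an unadjusted p below 0.05 in that test either, and none was called by DESeq2, limma-voom or the exact test of edgeR. In limma-voom 1 of the 3 had an unadjusted p below 0.05. bta-miR-25, the seed relative of bta-miR-92a, had 1751, 1716 and 1627 CPM in the grass-fed and 1046, 1359 and 1377 CPM in the grain-fed libraries. The groups did not overlap, and the log2 fold change was 0.43 (standard error 0.20, FDR = 0.197, edgeR), with an interval from 0.996-fold to 1.82-fold. bta-miR-93, of the miR-17 seed family, lay on the other side of 0 although its hairpin neighbours that of bta-miR-25. Its level was 510, 395 and 472 CPM in the grass-fed and 557, 592 and 616 CPM in the grain-fed libraries. These ranges did not overlap either, and the log2 fold change stood at -0.36 (standard error 0.21, FDR = 0.295, edgeR). bta-miR-106b, of the same seed family as bta-miR-93, had 86.7, 56.8 and 85.6 CPM in the grass-fed and 81.8, 90.6 and 106.4 CPM in the grain-fed libraries. Grass-fed replicate 2 was its lowest library too, the groups overlapped, and the log2 fold change was -0.27 (standard error 0.26, FDR = 0.585, edgeR), or -0.096 without that library.

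bta-miR-92b comes from a locus of its own and shares its seed with bta-miR-92a and bta-miR-25. It was rare, with 86, 92 and 44 counts in the grass-fed and 29, 15 and 29 counts in the grain-fed libraries. After scaling these were 18.1, 21.7 and 11.5 CPM in the grass-fed and 28.2, 21.2 and 51.5 CPM in the grain-fed libraries. The ranges met at 21.7 CPM in grass-fed replicate 2 and 21.2 CPM in grain-fed replicate 2, and grain-fed replicate 3 was the highest. The 95% counting interval of grain-fed replicate 2 alone ran from 11.9 to 35.0 CPM (exact Poisson, counting error only). The log2 fold change was the lowest of the 10, with an interval from 0.301-fold to 0.938-fold, but its FDR of 0.148 in edgeR did not pass the threshold. It was 0.0699 in DESeq2, and without grain-fed replicate 3 the log2 fold change was -0.59 (FDR = 0.384, edgeR). bta-miR-92b is on the list of DEmiRNAs that the study drew from these libraries, so its direction here is not independent evidence.

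The position of 0 depended on how libraries were scaled. Scaling by total count alone moved the median of all tested miRNAs from 0.13 to -0.29, and upper-quartile scaling moved it to 0.31. With total counts bta-miR-92a was not called (log2 fold change 0.47, FDR = 0.161, edgeR), bta-miR-92b and bta-miR-93 were called as lower (FDR = 0.0320 and 0.0869, edgeR), and bta-miR-25 stood at 0.02. With upper-quartile scaling bta-miR-25 was called as higher beside bta-miR-92a (FDR = 0.0371 and 0.00297, edgeR). A change of scaling shifts all miRNAs nearly alike, so values relative to the median of all tested miRNAs differ little between the 5 scalings by construction. bta-miR-92a stood 0.76 to 0.79 above that median on the log2 scale and bta-miR-25 0.30 to 0.31 above it. bta-miR-93 stood at -0.49 to -0.46 from it, bta-miR-17-5p at -0.61 to -0.54 and bta-miR-92b at -1.07 to -1.05.

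**Figure D2:**
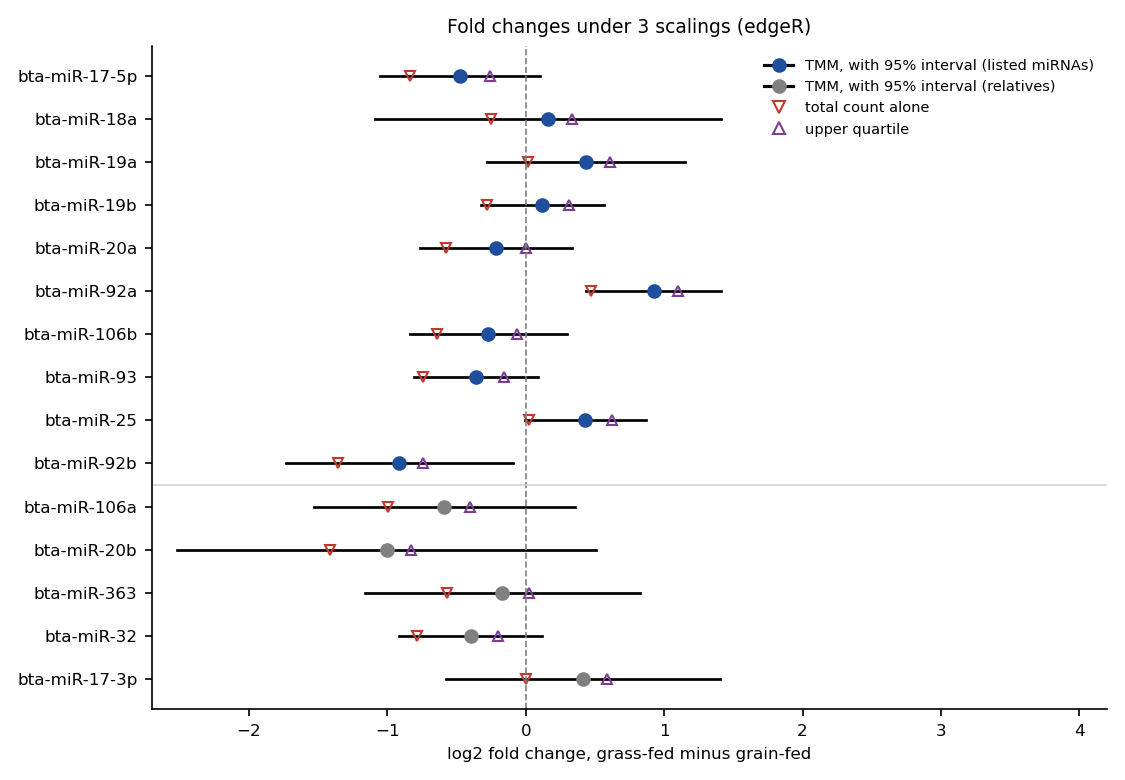
Log2 fold change, grass-fed minus grain-fed (horizontal axis), of the 10 listed miRNAs (blue) and 5 tested relatives (grey), with the 95% interval of the edgeR fit on TMM-scaled counts. Open triangles give the same fit with total counts (pointing down) and with upper-quartile scaling (pointing up), which shift all rows to the left and right. The intervals of bta-miR-92a and bta-miR-92b lie on either side of 0, and FDR passed 0.1 for bta-miR-92a alone.

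Levels were also summed over each cluster, with no test of the sums. The miR-17/92 sum was 5839, 7987 and 6427 CPM in the grass-fed and 4111, 4245 and 4989 CPM in the grain-fed libraries. Without bta-miR-92a the sum of the other 5 was 1448 ± 304 CPM in grass-fed and 1652 ± 280 CPM in grain-fed liver (SD, 3 libraries each), and the groups overlapped. The miR-106b/25 sum was 2233 ± 99.7 CPM in grass-fed and 1942 ± 224 CPM in grain-fed liver (SD, 3 libraries each). The log2 ratio of these means, grass-fed over grain-fed, was 0.20. With scaling by total counts, the difference between the mean log2 sums of the groups was -0.21.

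Shares of a cluster's own counts do not depend on the scaling of libraries. bta-miR-92a made up 73.6%, 86.1% and 73.7% of the miR-17/92 counts in the grass-fed and 67.7%, 57.6% and 63.4% in the grain-fed libraries. bta-miR-20a made up 16.7%, 7.87% and 16.98% in the grass-fed and 19.9%, 27.0% and 23.5% in the grain-fed libraries. The share of bta-miR-17-5p was 1.92% to 4.198% in the grass-fed and 5.76% to 8.11% in the grain-fed libraries, and that of bta-miR-19b was 3.69% to 5.14% and 5.76% to 6.90%. All of these shares were separate between the groups. Each had p = 0.1 in the exact two-sided permutation test, the smallest p that 3 libraries against 3 allow. Among all ratios of 2 tested miRNAs with a count in every library, 38.3% were separate. No such background was computed for shares of a cluster. The shares of bta-miR-18a and bta-miR-19a, the rarest members of the cluster, overlapped between the groups. For bta-miR-18a they were 0.0443% to 0.105% in the grass-fed and 0.0334% to 0.166% in the grain-fed libraries. For bta-miR-19a they were 0.335% to 0.480% in the grass-fed and 0.400% to 0.533% in the grain-fed libraries. The closest shares of bta-miR-92a between the groups were 73.6% in grass-fed replicate 1 and 67.7% in grain-fed replicate 1. In the miR-106b/25 cluster bta-miR-25 made up 74.6%, 79.2% and 74.5% of the counts in the grass-fed and 62.1%, 66.6% and 65.6% in the grain-fed libraries, and bta-miR-93 accounted for 18.2% to 21.7% and 29.0% to 33.1%. The share of bta-miR-106b was 2.62% to 3.92% in the grass-fed and 4.44% to 5.07% in the grain-fed libraries. All 3 shares were separate as well (exact permutation p = 0.1). The shares of a cluster add up to a fixed total, so a higher share of the most abundant member lowers those of the others, and they are not independent of each other.

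**Figure D3:**
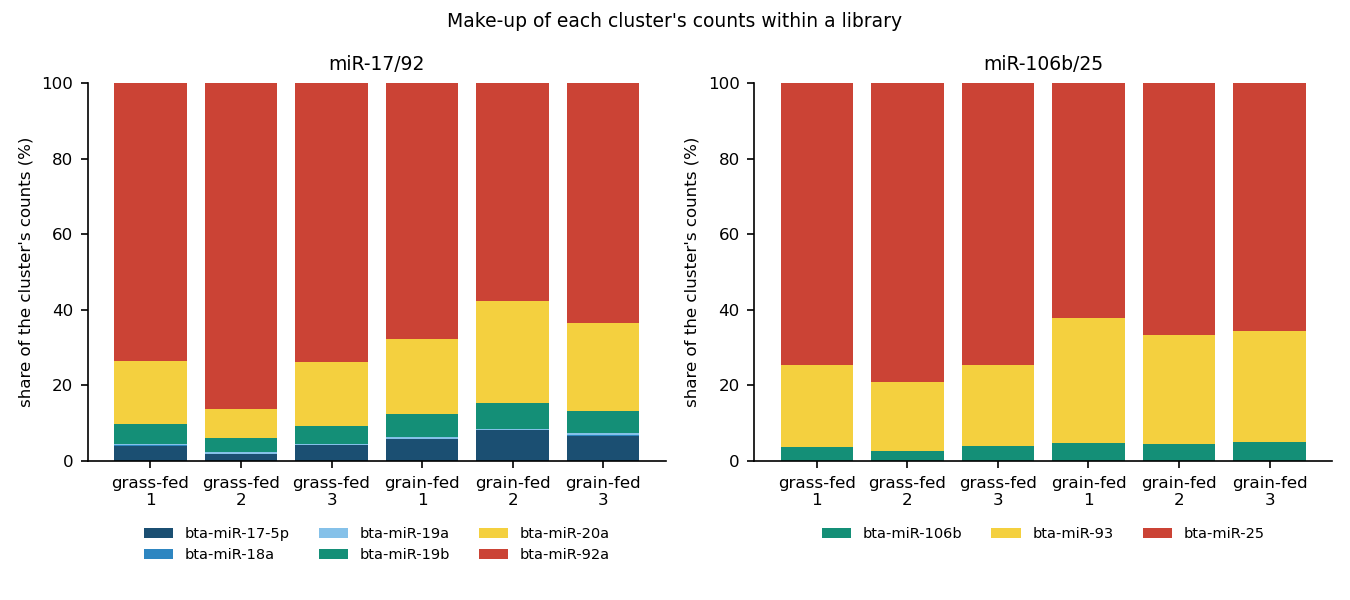
Share of each cluster's counts (vertical axis, percent) taken by its members in each library, for miR-17/92 (left) and miR-106b/25 (right). bta-miR-92a (red, left) and bta-miR-25 (red, right) fill more of every grass-fed bar than of any grain-fed bar, and bta-miR-20a and bta-miR-93 (yellow) fill less.

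Ratios of 2 miRNAs counted in the same library do not depend on scaling either. Of 12 ratios compared, 6 had ranges that did not overlap between the groups, beside 38.3% of all 59685 ratios that can be formed among the 346 tested miRNAs with a count in every library. The 12 share members, are not independent and were chosen with earlier results of these data known. In each of the 6 the exact two-sided permutation p was 0.1, or 0.2 after Benjamini-Hochberg adjustment over the 12, and no ratio could have reached a lower p. The largest difference was that of bta-miR-92b to bta-miR-92a, products of the same seed from different loci. For each 1000 counts of bta-miR-92a there were 4.22, 3.15 and 2.44 of bta-miR-92b in the grass-fed and 10.2, 8.69 and 16.3 in the grain-fed libraries, a ratio 3.54-fold higher in the grain-fed group. The ratio of bta-miR-92b to bta-miR-25 differed by 2.57-fold in the same direction. Leaving out each library in turn, the log2 difference of bta-miR-92b to bta-miR-92a lay between -2.02 and -1.56.

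bta-miR-93 and bta-miR-25 come from neighbouring hairpins of the same MCM7 intron cluster. For each 1000 counts of bta-miR-25 there were 291, 230 and 290 of bta-miR-93 in the grass-fed and 533, 435 and 447 in the grain-fed libraries. The grain-fed ratio was 1.75-fold higher. That of bta-miR-106b to bta-miR-25 was 1.67-fold higher in the grain-fed group, and that of bta-miR-19b to bta-miR-92a 1.72-fold higher. The ratio of bta-miR-17-5p to bta-miR-20a differed least among the 6 but was the most even within groups. There were 241, 244 and 247 counts of bta-miR-17-5p per 1000 of bta-miR-20a in the grass-fed and 289, 301 and 287 in the grain-fed libraries. Grass-fed replicate 2, which stood apart in the level of both, was in the middle of its group in this ratio. No separation was seen for bta-miR-20a to bta-miR-106b, bta-miR-106b to bta-miR-93 or bta-miR-17-5p to bta-miR-93, all of the miR-17 seed family, with log2 differences of 0.06, 0.06 and -0.13 between the groups. The SD within a group was 0.11 to 0.28 for these 3. Nor was there a separation for bta-miR-92a to bta-miR-25, with a log2 difference of 0.46 (SD 0.36 in grass-fed and 0.29 in grain-fed, n = 3 each, exact permutation p = 0.2).

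**Figure D4:**
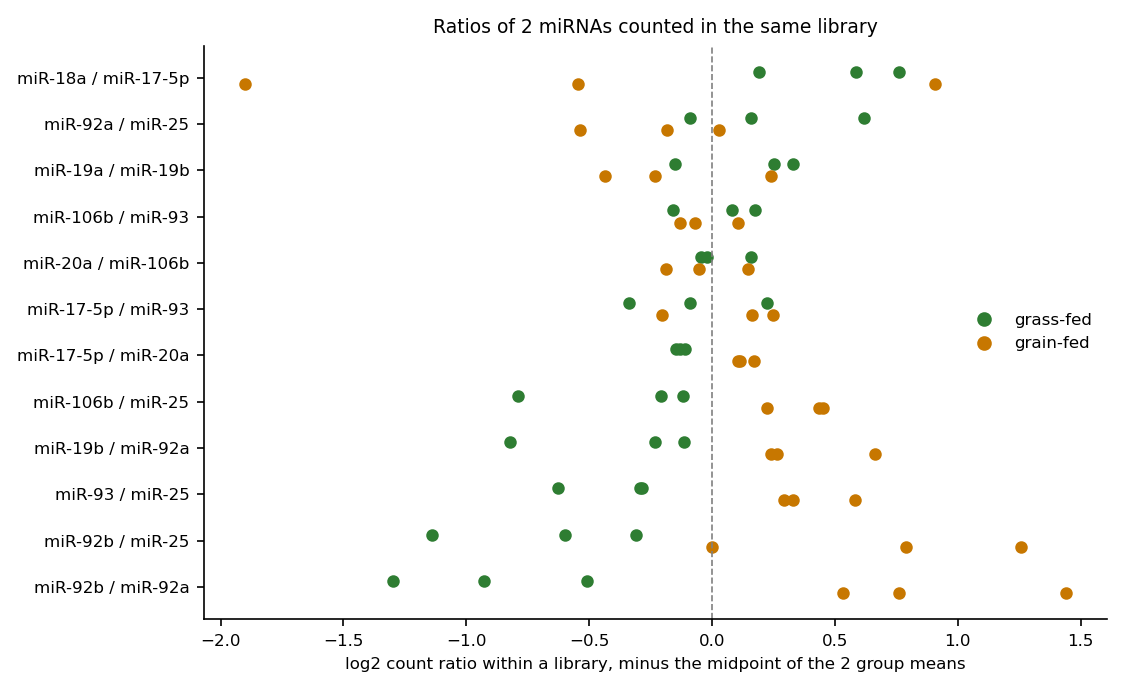
Log2 ratio of 2 miRNAs counted in the same library (horizontal axis, shown as the distance from the midpoint of the group means) for the 12 pairs, with 3 grass-fed (green) and 3 grain-fed (orange) libraries each. The lower 6 rows, from miR-17-5p / miR-20a down to miR-92b / miR-92a, have no overlap between green and orange points.

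The order of the levels was much alike in both groups. In each it ran bta-miR-92a, bta-miR-25, bta-miR-20a, bta-miR-93 from the top, with bta-miR-106b below the next pair, bta-miR-19b and bta-miR-17-5p, and bta-miR-18a last. A miRNA read covers the whole molecule, so levels in CPM were compared without division by length, and differences in ligation between sequences were not tested. bta-miR-19b stood above bta-miR-17-5p in all 3 grass-fed libraries, and in the grain-fed group, where their ranges overlapped, it was lower in 2 of 3. bta-miR-92b was below bta-miR-19a in all 3 grass-fed and above it in all 3 grain-fed libraries, although the ranges overlapped within each group. The only other neighbours with overlapping ranges were bta-miR-25 and bta-miR-20a in the grain-fed group.

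Reads of bta-miR-92a were listed under both of its precursors. The count under bta-mir-92a-2, the copy of the X chromosome, was 86.6%, 86.2% and 87.3% of that under bta-mir-92a-1 in the grass-fed and 90.9%, 93.3% and 92.2% in the grain-fed libraries. This comparison was chosen after the values were seen, and its exact permutation p was 0.1. When each precursor was fitted on its own, bta-mir-92a-1 stood at 0.85 on the log2 scale (FDR = 0.0184, edgeR) and bta-mir-92a-2 gave 0.76 (FDR = 0.0266, edgeR). For bta-miR-19b the counts under bta-mir-19b and bta-mir-19b-2 differed by at most 4 reads in any library. Reads of either miRNA can come from both loci and cannot be assigned to the autosomal cluster alone.

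Among 7 relatives listed beside the 10, namely the remaining miRNAs of that X chromosome cluster, bta-miR-32 and bta-miR-367 of the miR-92 seed family, and the opposite arm bta-miR-17-3p, 5 passed the filter. None of the 5 was called in the edgeR quasi-likelihood test, none had an unadjusted p below 0.05 there, and none was called by DESeq2, limma-voom or the exact test. Their median log2 fold change was -0.40. bta-miR-32, from a hairpin inside TMEM245, had 87.2, 73.1 and 95.02 CPM in the grass-fed and 130, 108 and 95.8 CPM in the grain-fed libraries (log2 fold change -0.40, standard error 0.24, FDR = 0.312, edgeR). The ranges of the groups did not overlap for 2 of the 5 tested relatives, bta-miR-32 and bta-miR-106a, beside 32.9% of all tested miRNAs. The miRNAs of the X chromosome cluster had means of at most 11.5 CPM in either group. bta-miR-106a had 5.79 ± 1.37 and 8.83 ± 1.78 CPM, bta-miR-363 10.3 ± 3.53 and 11.5 ± 5.05 CPM, and bta-miR-20b 2.14 ± 0.910 and 5.05 ± 3.53 CPM in grass-fed and grain-fed liver (SD, 3 libraries each). bta-miR-18b had at most 2 counts in a library and bta-miR-367 had 0 in each, which allows up to 0.632 to 0.787 CPM in the grass-fed and 2.92 to 5.32 CPM in the grain-fed libraries, for 3 counts and for counting error only. bta-miR-17-3p was read 2.82% to 6.31% as often as bta-miR-17-5p in grass-fed and 2.06% to 3.16% as often in grain-fed libraries, and these ranges overlapped. The forms of miR-17, miR-20 and miR-106a or miR-106b differ by few bases, and no source used here gives the counting settings, so reads shared between these paralogs could be divided differently.

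Markers of liver cell types were read in the same libraries. Of 3 hepatocyte miRNAs, bta-miR-122 and bta-miR-192 passed FDR 0.1 (edgeR) as higher in grass-fed liver, beside 9.43% of all tested miRNAs. bta-miR-194 did not, with 9811 ± 2765 CPM in grass-fed and 13211 ± 2980 CPM in grain-fed liver and a log2 fold change of -0.43. The summed level of the 3, most of it bta-miR-122, was 364031 to 545892 CPM in grass-fed and 191672 to 253900 CPM in grain-fed libraries. These ranges did not overlap, nor did those of 32.9% of all tested miRNAs, and none of the 3 was at 0. Of 5 leukocyte miRNAs (bta-miR-142-3p, bta-miR-142-5p, bta-miR-150, bta-miR-155 and bta-miR-223), 0 were called in the edgeR quasi-likelihood test, where 3 had an unadjusted p below 0.05, and DESeq2 called 1, bta-miR-150. Neither limma-voom nor the exact test of edgeR called any of the 5. Their sum was 743 to 993 CPM in grass-fed and 943 to 1132 CPM in grain-fed libraries, and none was at 0 in any library. Of 3 erythroid miRNAs (bta-miR-451, bta-miR-144 and bta-miR-486) 0 were called (edgeR), with sums of 419 to 643 and 465 to 665 CPM, and bta-miR-144 was at 0 in grain-fed replicate 3. Of the erythroid miRNAs 0 had an unadjusted p below 0.05 in that test and 0 were called by DESeq2, limma-voom or the exact test. Of 5 biliary miRNAs (bta-miR-141, bta-miR-429 and the 3 of the miR-200 name) bta-miR-200b was called as higher and bta-miR-141 as lower (edgeR), with sums of 599 to 880 and 442 to 704 CPM and none at 0. The part of any of these cell types in the values of the 10 miRNAs was not tested.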

How the data were processed

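Liver small RNA libraries of 3 grass-fed and 3 grain-fed steers were used. Per the labels and the study's methods, the authors discarded adapters and reads of low quality (the submitters' processing notes name FastQC 0.11.5 and Trimmomatic 0.36), kept reads of 17 to 25 nt, aligned them to ARS-UCD1.2 and counted them against miRBase 22 with miRDeep2, and deposited raw counts and CPM per pair of mature miRNA and precursor. The deposited CPM were counts over each library's total and were not tested. For each mature miRNA the largest count over its precursors was taken, miRNAs were tested if at least 2 libraries held more than 2 counts, and TMM scaling and the quasi-likelihood test of edgeR 4.0.16 in R 4.3.3 were applied with Benjamini-Hochberg adjustment (FDR 0.1). DESeq2 1.42.0 and limma-voom 3.58.1 were alternatives, with other scalings and filters and each library left out. The scripts were tested on simulated data. The 10 miRNAs, their relatives, the markers and the 12 ratios were chosen with earlier results of these data known, and all 10 are named. Values are mean ± SD, and standard errors come from the edgeR fit. The edgeR p-values set the group difference against the spread between animals. The exact permutation p-values count how often reassigning the 6 libraries to the groups gives as large a difference. Fold intervals come from the edgeR fit and include the spread between animals, whereas Poisson intervals and floors of 3 counts cover counting error only, since reads carried no molecular identifiers. Sequences are not analysed here.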

Additional observations from a re-analysis of the deposited data

How the results depend on the processing

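Of 210 recomputed fold changes of the 10 miRNAs, 194 kept direction and side of FDR 0.1 and 7 changed direction. bta-miR-92a was called in 19 of 21 alternatives (FDR 0.00297 to 0.161, edgeR, DESeq2 or limma-voom), and the exceptions are given in the report. The number of called miRNAs among the 10 was 2 with total counts, with upper-quartile scaling, with at least 10 counts in 3 libraries, with filterByExpr, in DESeq2 and with separate precursors, against 1 in the main test, and it lay between 0 and 1 when each library was left out. The additional miRNA was bta-miR-92b or, with upper-quartile scaling, bta-miR-25, and with total counts bta-miR-92b and bta-miR-93 replaced bta-miR-92a. The number called as higher was 0 with total counts, 2 with upper-quartile scaling and 0 to 1 when each library was left out. Over all tested miRNAs, 74 of 456 were called with total counts and 124 of 456 with upper-quartile scaling. It was 86 of 317 with at least 10 counts in 3 libraries and 96 of 316 with filterByExpr. DESeq2 called 91 of 456, and with separate precursors 116 of 586 pairs were called. The 2 of 10 was close to these shares or below them. In the main test 87 were called over all miRNAs, and 49 to 86 when each library was left out (49 without grain-fed replicate 2). Of these 43 were higher, against 9 with total counts, 82 with upper-quartile scaling and 13 to 42 when each library was left out. The share of the calls that were lower in grass-fed liver was 50.6%, and it was 87.8% and 33.9% with total counts and upper-quartile scaling. bta-miR-18a stood at -0.25 with total counts and between -0.30 and 0.97 when each library was left out. bta-miR-19b stood at -0.28 with total counts, at -0.0045 with at least 10 counts in 3 libraries and between -0.0035 and 0.13 when each library was left out. With upper-quartile scaling bta-miR-20a stood at 0.0015 and bta-miR-363 at 0.02, the latter lying between -0.55 and 0.080 when each library was left out. The log2 difference of the miR-17/92 sum was 0.17 with total counts, and that of the miR-106b/25 sum -0.21 with total counts and 0.39 with upper-quartile scaling. The cause of these changes was not tested beyond the shift of the median given in the report. All 84 recomputed ratio differences stayed within 1 SD of the spread within groups. Where 1 library was left out this was fixed by arithmetic, since a mean of 3 values cannot move that far. It is therefore no measure of stability. Same-numbered libraries did not deviate together (r = -0.05, -0.20 and -0.01), so the numbers do not pair the animals. A fit with the replicate block called 82 miRNAs and 1 of the 10, bta-miR-92a at 0.90 (FDR = 0.0213, edgeR). No library correlated best with the library of its own number in the other group. The lower depth of the grain-fed libraries limits the rarer miRNAs, such as bta-miR-18a with 10 grain-fed counts in all.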
